A study of Mus musculus with 3 samples.

Results

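Chemokines are small secreted proteins that attract leukocytes, and their receptors are G protein-coupled receptors on the responding cells. The genes described here were taken from the array annotation by name: genes called Ccl, Cxcl, Ccr or Cxcr with a number, together with Cx3cl1, Cx3cr1, Xcl1 and Xcr1. The rule gave 49 genes on 64 probes, out of 27665 genes on 41169 probes, and used no measured value. Of the 49 genes, 35 encode ligands and 14 encode receptors. Inflammatory chemokines are switched on by cytokines and bring neutrophils, monocytes and effector T cells into tissue, while homeostatic chemokines place cells within lymphoid organs, bone marrow and barrier tissue. A receptor usually binds several ligands and a ligand several receptors, so the genes are described below by family and by known pairing. In skeletal muscle, monocytes enter after damage largely through Ccr2 and its ligands, while Cxcl12 is made by stromal cells without stimulation.

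The series profiled muscle of male mice, 6 weeks old by the labels, at 14 days. One group swam and was fed a diet with 0.5% powder of the green alga Chlorella, one swam on normal food, and one did not swim and ate normal food. The labels do not say which muscle was taken, and they give neither strain nor swimming schedule. RNA of 10 mice per group was pooled, so each group is 1 mixture of 10 animals measured on 1 single-colour array. These are called the Chlorella, swimming and nonswimming arrays below. No group of nonswimming mice fed Chlorella was analysed here, so Chlorella could only be examined in swimming mice.

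Each group had a single array, so there was no replicate and no test, every difference below lacks a replicate check, and spread between mice was not measured. Signals are given as scaled signal, the processed intensity set relative to the 75th percentile of its array, which is 100. They compare 1 gene across arrays and not 1 gene with another. Beside each log2 ratio stands, after ±, its technical error as estimated by the scanner software. Between 56.96% and 60.38% of probes were well above background on each array, and none was saturated. The lowest scaled signals well above background were 2.63, 1.96 and 2.26 on the Chlorella, swimming and nonswimming arrays, so the floor was highest on the Chlorella array. All 10 skeletal muscle markers examined, among them Acta1 and Ckm, were well above background on every array, which fits the labelled tissue.

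Chemokine and receptor genes tended to be brightest on the swimming array and dimmest on the Chlorella array. Of the 49 genes, 31 (63.3%) were well above background on all 3 arrays, against 55.2% of all 27665 genes. Of these 31 member genes, 21 (67.7%) had their highest scaled signal on the swimming array, against 25.2% of all 15269 genes seen on all 3 arrays. The lowest signal was on the Chlorella array for 18 of the 31 (58.1%), against 27.8% of all genes. Another 11 genes (22.45%) were not well above background on any array: Cxcl2, Cxcl5, Cxcl15, Ccl1, Ccl3, Ccl20, Ccl22, Ccr1, Ccr4, Ccr8 and Xcl1. The share over all genes was larger, at 36.6%. Of the 49, 5 (10.2%) were above background on 1 array and 2 (4.08%) on 2 arrays, against 5.675% and 2.52% of all genes. In bulk tissue, fewer cells of a type and less RNA per cell cannot be told apart.

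Swimming mice on normal food were first compared with nonswimming mice on normal food. Of 33 member genes well above background on both arrays, 8 (24.2%) were higher by 2-fold or more with swimming, against 5.14% of 15661 genes. These were Cxcl7, Cxcl1, Ccr6, Cxcl9, Cxcl10, Ccl5, Ccl19 and Cxcr4. None was at least 2-fold lower, a size reached by 1.07% of all genes. Under quantile normalization, as under median centring, 7 were higher and 1 was lower. With normexp background correction, which compresses dim signals, 2 were higher, and with a stricter filter on dim signals 3 of 18 were. The median log2 ratio over the 33 was 0.33, against -0.035 over all genes, and fell to 0.090 with normexp and -0.00059 with the stricter filter. Of the 33 ratios 22 were positive (66.7%), against 44.87% over all genes, and the ratios ran from -0.90 to 4.07. A further 3 genes were above background on the swimming array alone, 1 on the nonswimming array alone, and 12 on neither. For genes seen only on the swimming array the ratio has a lower bound, and 1 of the 3 (Ccr7) was at least 2-fold higher by it, near the 34.9% over all genes of that kind. Cxcl11, the gene seen only on the nonswimming array, was not 2-fold lower by its bound, a size reached by 51.1% of such genes.

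Chlorella was then compared with normal food among swimming mice. Of 31 genes well above background on both arrays, 12 (38.7%) were lower by 2-fold or more with Chlorella, against 4.86% of 15508 genes. None was at least 2-fold higher, a size reached by 1.37% of all genes. With normexp 3 were lower, and with the stricter filter 2 of 14. Among the 12 were Cxcl7, Ccr2, Cxcl9, Cxcl13, Cxcr3, Ccl12, Ccl5, Cxcr4, Ccl7, Cxcl10 and Cxcl4. The median log2 ratio was -0.76, against 0.08 over all genes, and 27 of the 31 ratios were negative (87.1%), as were 40.1% of those of all genes. Of 5 genes above background on the swimming array alone, 2 (Ccr7 and Cxcr6) were at least 2-fold lower by their bound, against 32.6% of such genes overall. Ccr10, seen on the Chlorella array alone, was not 2-fold higher by its bound, a size reached by 50.9% of such genes.

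The swimming array enters both comparisons, so a value that stands out there moves both ratios in opposite directions. The comparison of Chlorella-fed swimming mice with nonswimming mice leaves that array out. Among 31 genes measured in it, 10 (32.3%) were lower by 2-fold or more with Chlorella, against 1.49% of 15336 genes, among them Ccr2, Ccl8, Ccl17, Cxcl7, Cxcr3, Ccl7, Ccl12, Ccl6 and Cxcl13. Only Cxcl1 was at least 2-fold higher, as were 2.07% of all genes. With normexp, as with the stricter filter, 2 were lower and 0 higher. The median log2 ratio was -0.32, against 0.04 over all genes. By its bound Cxcl11 was also at least 2-fold lower, 1 of 3 such genes, near the 27.4% over all genes. Ccr10 was again not 2-fold higher by its bound, against 36.9% of such genes.

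**Figure D1:**
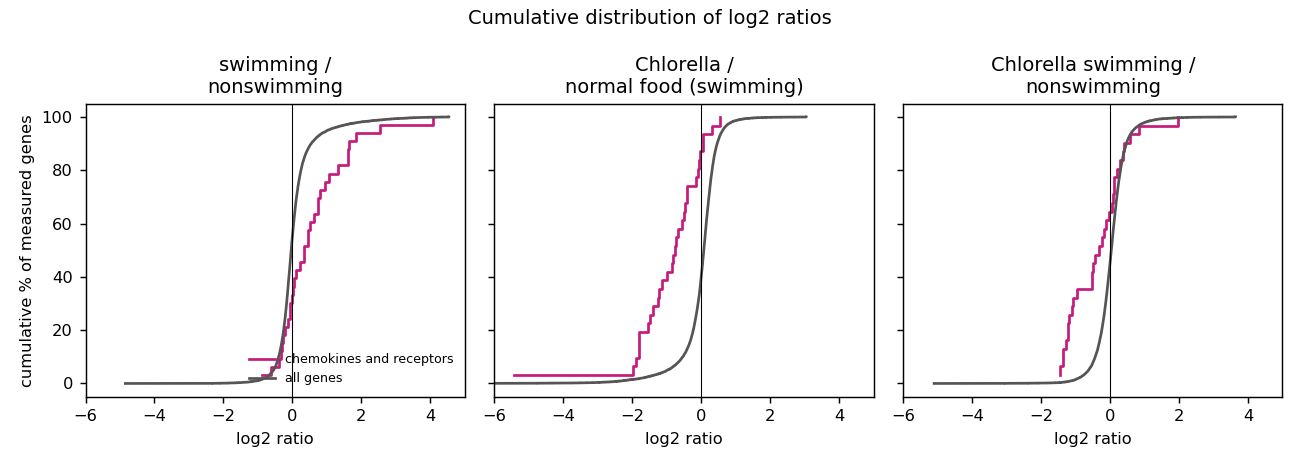
Cumulative percentage of measured genes (y axis) by log2 ratio (x axis) in each of the 3 comparisons, for chemokine and receptor genes and for all genes well above background on both arrays. At the median the chemokine curve lies right of that of all genes in swimming against nonswimming (medians 0.33 and -0.035). At the median it lies left in Chlorella against normal food (-0.76 and 0.08) and in Chlorella swimming against nonswimming (-0.32 and 0.04). In the last comparison the lowest member ratio was -1.45, against -5.10 over all genes, so the curves cross.

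**Figure D2:**
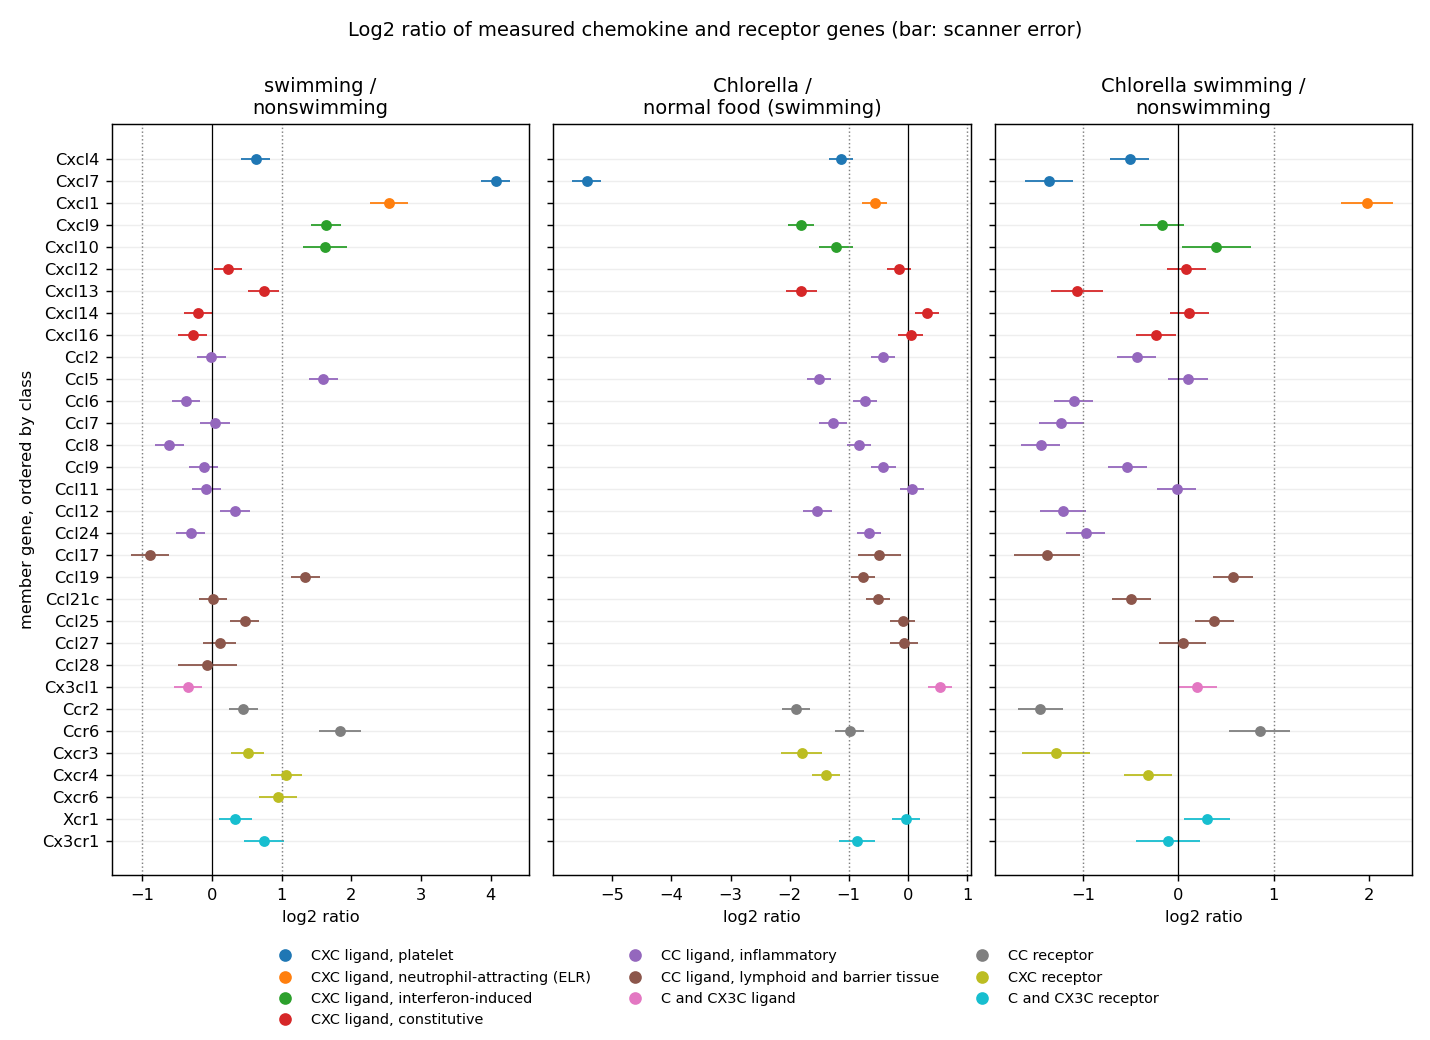
Log2 ratio of the member genes reported here that were well above background on both arrays (x axis), by gene and class (y axis), in the 3 comparisons, with bars for the scanner software's error and dotted lines at a 2-fold difference. Cxcl7 lies farthest from 0 in swimming against nonswimming (4.07) and in Chlorella against normal food (-5.43), while Cxcl1 is the gene past 2-fold on the positive side in Chlorella swimming against nonswimming (1.98).

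The ligands stored in platelets gave the widest range. Cxcl7, also named Ppbp, encodes the precursor of a neutrophil attractant held in platelet granules. Its scaled signal was 7.06 on the Chlorella array, against 305 on the swimming array and 18.1 on the nonswimming array. It was thus high on the swimming array alone, 16.8-fold over nonswimming (log2 ratio 4.07 ± 0.21), and 43.2-fold lower on the Chlorella array than on the swimming array (-5.43 ± 0.24). Between the Chlorella and nonswimming arrays the log2 ratio was -1.36 ± 0.25. The scanner files place its probe at 90741218 to 90741277 of chromosome 5, in a genome build they do not name. Cxcl4, also named Pf4, encodes platelet factor 4, is the neighbour of Cxcl7 in RefSeq order and had 321 on the Chlorella array, against 704 on the swimming array and 457 on the nonswimming array. It followed the same order of arrays over a narrower range, with log2 ratios of 0.62 ± 0.20 for swimming against nonswimming and -1.13 ± 0.20 for Chlorella against normal food. Cxcl5, on the other side of Cxcl7, was not well above background on any array.

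Other platelet and megakaryocyte genes differed in the same arrays, though not all of them to 2-fold. Of 5 markers examined apart from these ligands, 3, 5 and 4 were well above background on the Chlorella, swimming and nonswimming arrays, and their summed scaled signal was 17.1 on the Chlorella array, against 233 on the swimming array and 24.1 on the nonswimming array. Treml1, a platelet receptor, had log2 ratios of 3.80 ± 0.23 for swimming against nonswimming and -4.68 ± 0.29 for Chlorella against normal food. Itga2b, the platelet integrin subunit, had ratios of 2.50 ± 0.25 and -3.14 ± 0.31. Gp1bb, a further marker, was well above background on every array and not past 2-fold, with ratios of 0.55 ± 0.27 and -0.35 ± 0.26. The part of platelet or megakaryocyte content in the signals of Cxcl7 and Cxcl4 was not tested.

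Cxcl7 belongs to the CXC ligands that carry the ELR motif and attract neutrophils. Of the other 4 members of that kind, Cxcl1 was well above background on all 3 arrays, while Cxcl2, Cxcl5 and Cxcl15 were not on any array. The scaled signal of Cxcl1, which acts on neutrophils through Cxcr2, was 16.1 on the Chlorella array, against 23.7 on the swimming array and 4.09 on the nonswimming array. It was high on both arrays of swimming mice, a pattern that no other member past 2-fold in swimming against nonswimming had to that size. Its log2 ratio was 2.54 ± 0.27 for swimming against nonswimming, 1.98 ± 0.28 for Chlorella swimming against nonswimming and -0.56 ± 0.21 for Chlorella against normal food. The nonswimming signal lay close to the floor of that array, so the size of the first pair of ratios is uncertain. Cxcr2 itself, named Il8rb in the files, was above background on the swimming array alone, with 0.743 on the Chlorella array, against 6.64 on the swimming array and 1.57 on the nonswimming array. By its bound it was past 2-fold over nonswimming (log2 1.56). Neutrophils carry Cxcr2, and the 12 neutrophil markers found had summed scaled signals of 357.7 on the Chlorella array, against 28170 on the swimming array and 1674 on the nonswimming array, with 9, 12 and 11 of them well above background. S100a9 alone made up 283.2, 20710 and 1225 of these sums. The part of neutrophil content in the signals of Cxcl1 and Cxcr2 was not tested.

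Promoters, 250 bases before to 50 after the annotated start, were found in RefSeq (build GRCm38.p6) for 36 of the 49 genes. The letters GGG, any 2 bases and TTTCC, which resemble the NF-kB binding site, were present on either strand in 4 of the 36, those of Ccl20, Ccl9, Cxcl1 and Cxcl2, and in 1.62% of 27025 promoters of that length. The neighbours Cxcl1 and Cxcl2 each held these letters at a pair of places that did not overlap, and their 250 bases before the start are shown because 1 of the pair was detected in muscle and the other was not. Capitals mark the matches, which begin 89 and 71 bases before the start in Cxcl1 and 97 and 78 bases before it in Cxcl2.
Cxcl1, chr5:90890995-90891244, plus strand: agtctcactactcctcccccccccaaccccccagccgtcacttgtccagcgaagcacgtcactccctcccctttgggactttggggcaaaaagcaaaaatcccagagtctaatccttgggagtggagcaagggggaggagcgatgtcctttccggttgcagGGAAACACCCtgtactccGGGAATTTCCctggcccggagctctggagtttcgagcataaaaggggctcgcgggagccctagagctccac
Cxcl2, chr5:90903649-90903898, plus strand: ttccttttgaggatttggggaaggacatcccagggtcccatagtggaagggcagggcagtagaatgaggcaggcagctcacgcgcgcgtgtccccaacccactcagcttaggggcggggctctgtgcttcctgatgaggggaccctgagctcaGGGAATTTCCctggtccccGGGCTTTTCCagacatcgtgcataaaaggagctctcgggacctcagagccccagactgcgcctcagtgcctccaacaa
A match is a description of letters and does not show binding. Of the 4 genes with these letters, Ccl9 and Cxcl1 were well above background on all 3 arrays and Ccl20 and Cxcl2 on none. Whether the letters relate to detection was not tested.

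Cxcl9, Cxcl10 and Cxcl11 are induced by interferon and attract activated T cells and NK cells through Cxcr3. Cxcl9 had 10.1 on the Chlorella array, against 35.5 on the swimming array and 11.4 on the nonswimming array. Cxcl10 had 5.26, 12.2 and 3.99 in the same order of arrays. Both were thus high on the swimming array and close to each other on the other arrays, with log2 ratios for swimming against nonswimming of 1.64 ± 0.22 for Cxcl9 and 1.62 ± 0.32 for Cxcl10. The nonswimming signal of Cxcl10 lay close to the floor of that array, so the size of its ratio is uncertain. For Chlorella against normal food the ratios of Cxcl9 and Cxcl10 were -1.81 ± 0.22 and -1.22 ± 0.29. Between the Chlorella and nonswimming arrays they were -0.17 ± 0.23 and 0.40 ± 0.36, near the size of the scanner error. Cxcl11 differed from both: it was above background on the nonswimming array alone (5.52), with a bound of -0.95 for swimming against nonswimming and -1.07 for Chlorella swimming against nonswimming.

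The receptor Cxcr3 had a scaled signal of 3.27 on the Chlorella array, against 11.4 on the swimming array and 7.98 on the nonswimming array. Its nonswimming signal lay nearer to the swimming signal than to the Chlorella signal, whereas the nonswimming signals of Cxcl9 and Cxcl10 lay nearer to their Chlorella signals. The log2 ratios of Cxcr3 were 0.51 ± 0.24 for swimming against nonswimming, -1.80 ± 0.35 for Chlorella against normal food and -1.28 ± 0.36 for Chlorella swimming against nonswimming. Ifng, the interferon that induces these ligands, went the other way in swimming against nonswimming. It had 2.21 with swimming and 9.24 without it (log2 ratio -2.06 ± 0.36). Its swimming signal lay close to the floor of that array, so the size of this ratio is uncertain. On the Chlorella array Ifng was not well above background. The transcription factor Irf1, which interferon induces, had scaled signals of 515.7 with swimming and 545.9 without, and a log2 ratio of -0.70 ± 0.20 for Chlorella against normal food.

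The letters GAAA, any 2 bases and GAAA, which resemble the interferon-stimulated response element, were present in the promoters of Ccl19, Cxcl10 and Cxcl14, 3 of 36, and in 3.49% of 27025 promoters. The 250 bases before the start are shown for Cxcl10 and Ccl19, which were both past 2-fold in swimming against nonswimming, with the match in capitals 213 and 208 bases before the start. The sequences are written on the strand of the gene.
Cxcl10, chr5:92348890-92349139, minus strand: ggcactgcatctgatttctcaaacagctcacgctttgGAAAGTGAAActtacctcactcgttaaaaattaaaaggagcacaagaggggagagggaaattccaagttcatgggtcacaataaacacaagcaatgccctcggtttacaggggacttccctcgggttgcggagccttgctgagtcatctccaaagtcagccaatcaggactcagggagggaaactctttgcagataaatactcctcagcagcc
Ccl19, chr4:42756366-42756615, minus strand: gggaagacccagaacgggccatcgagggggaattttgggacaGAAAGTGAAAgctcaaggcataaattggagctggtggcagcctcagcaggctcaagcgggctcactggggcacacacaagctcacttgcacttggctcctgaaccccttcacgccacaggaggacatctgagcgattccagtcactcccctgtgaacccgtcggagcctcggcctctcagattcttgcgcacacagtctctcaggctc
Cxcl14 holds the same letters 172 bases before its start and had a log2 ratio of -0.20 ± 0.20 in that comparison. Any relation of the letters to the ratios was not tested.

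The constitutive CXC ligands Cxcl12, Cxcl14 and Cxcl16 differed little on their brightest probes. Cxcl12, which holds progenitors and leukocytes in bone marrow and stroma, had 1780 on the Chlorella array, against 1969 on the swimming array and 1681 on the nonswimming array. Cxcl14 had 2537, 2038 and 2341, and Cxcl16, a membrane-bound ligand of Cxcr6, had 20.8, 20.1 and 24.4 in the same order. No log2 ratio of these genes exceeded 0.32 in size on the brightest probe. The probes of Cxcl16 disagreed. Its other probe had 11.8 on the Chlorella array, against 20.3 on the swimming array and 29.5 on the nonswimming array, with log2 ratios of -0.78 for Chlorella against normal food, where the first probe gave 0.05, and of -1.32 for Chlorella swimming against nonswimming, past 2-fold, where the first gave -0.23. For Cxcl12 a dimmer probe gave -0.74 for Chlorella against normal food, where the brightest gave -0.15.

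Cxcl13, made in B cell follicles to attract B cells, stood apart from these ligands with 5.43 on the Chlorella array, against 18.9 on the swimming array and 11.3 on the nonswimming array. Its log2 ratio was -1.80 ± 0.26 for Chlorella against normal food, -1.06 ± 0.27 for Chlorella swimming against nonswimming and 0.74 ± 0.22 for swimming against nonswimming. Its receptor Cxcr5 is named Blr1 in the files, so the naming rule missed it, and it was added after its values were seen. Cxcr5 was above background on the swimming array alone, where it had 13.0, at least 5.75-fold over nonswimming and with Chlorella at least 4.92-fold lower than normal food. Of the 10 B cell markers, such as Cd79b and Ms4a1, 4, 10 and 6 were above background on the Chlorella, swimming and nonswimming arrays, with summed scaled signals of 184.6, 929.9 and 219.4. Blnk alone made up 139.8, 309.7 and 155.4 of these sums. The part of B cell content in the signals of Cxcl13 and Cxcr5 was not tested.

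Cxcr4, the receptor of Cxcl12, had 7.0 on the Chlorella array, against 18.3 on the swimming array and 8.74 on the nonswimming array. It was high on the swimming array alone although its ligand was nearly level, with log2 ratios of 1.07 ± 0.23 for swimming against nonswimming and -1.39 ± 0.24 for Chlorella against normal food. A further probe of Cxcr4 gave 1.23 and -1.80 (log2 ratios) for the same comparisons. Ackr3, the scavenging receptor of Cxcl12 that the files name Cmkor1, was also added after its values were seen and had 603.8, 577.3 and 557.6 on the Chlorella, swimming and nonswimming arrays. Cxcr6, the receptor of Cxcl16 on T cell subsets, was not well above background on the Chlorella array and had 7.83 with swimming and 4.09 without. Its log2 ratio was 0.94 ± 0.27 for swimming against nonswimming, just short of 2-fold, and the bound for Chlorella against normal food was -1.57.

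Among the 12 inflammatory CC ligands, 9 were well above background on all 3 arrays, and 8 of those 9 had negative log2 ratios for Chlorella against normal food, with a median of -0.72. Of the 3 past 2-fold there, Ccl7 and Ccl12 are ligands of the monocyte receptor Ccr2. Ccl7 had 8.0 on the Chlorella array, against 19.2 on the swimming array and 18.7 on the nonswimming array. Ccl12, a mouse ligand of Ccr2, had 6.53, 18.9 and 15.1 in the same order of arrays. Both were low on the Chlorella array and close together on the other arrays. For Chlorella against normal food the log2 ratio was -1.27 ± 0.23 for Ccl7 and -1.54 ± 0.24 for Ccl12, and for Chlorella swimming against nonswimming it was -1.23 ± 0.24 and -1.21 ± 0.25. A dimmer probe of Ccl7 fell just short of 2-fold in both, at -0.98 and -0.82 on the log2 scale.

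Ccl2, the chief ligand of Ccr2, followed with a smaller difference. Its probe is spotted 10 times per array, which gives the technical spread directly. The 10 spots averaged 46.5 ± 2.32 on the Chlorella array (SD between spots, range 42.7 to 50.4), against 62.4 ± 4.55 on the swimming array (54.6 to 69.8) and 62.8 ± 2.62 on the nonswimming array (60.5 to 68.7). All spots of the Chlorella array lay below every spot of the other arrays, while the spots of the swimming and nonswimming arrays overlapped. These spots share 1 RNA pool per array and say nothing on the spread between mice. The log2 ratio of Ccl2 was -0.42 ± 0.21 for Chlorella against normal food and -0.01 ± 0.20 for swimming against nonswimming.

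**Figure D3:**
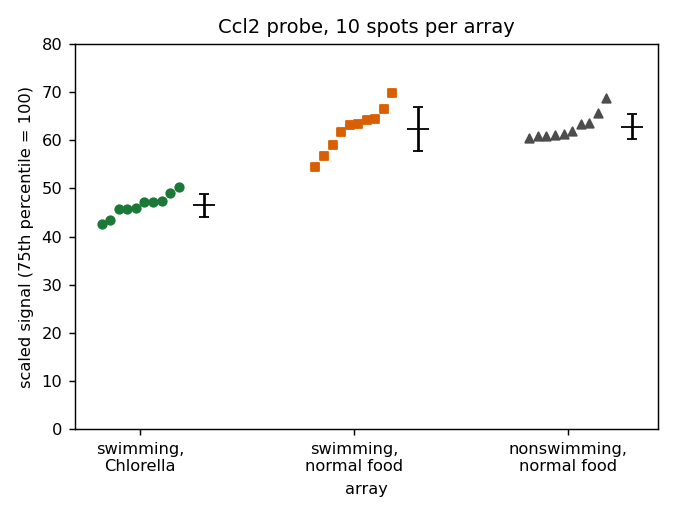
Scaled signal (y axis, 75th percentile of the array = 100) of the 10 spots of the Ccl2 probe on each array (x axis), sorted within the array, with the mean and SD between spots beside them. The 10 spots of the Chlorella array lie between 42.7 and 50.4, below all spots of the swimming (54.6 to 69.8) and nonswimming (60.5 to 68.7) arrays.

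Ccl8, an attractant of monocytes and T cells, and Ccl6, a mouse chemokine made by cells of the macrophage lineage, were highest on the nonswimming array. Ccl8 had 51.7 on the Chlorella array, against 92.0 on the swimming array and 140.7 on the nonswimming array. Ccl6 had 272.7, 448.7 and 583.1. In both genes the swimming array lay between the others, and Chlorella swimming against nonswimming gave log2 ratios of -1.44 ± 0.20 for Ccl8 and -1.10 ± 0.20 for Ccl6. Ccl9, a mouse ligand next to Ccl6, had a ratio of -0.53 ± 0.20 there and Ccl24, an eosinophil attractant, one of -0.97 ± 0.20, just short of 2-fold. Ccl11, also an eosinophil attractant, was level, with 240.4 on the Chlorella array, against 229.6 on the swimming array and 243.2 on the nonswimming array, while eosinophil granule genes differed widely between the same arrays, such as Prg2 with 4.32, 1708 and 73.3.

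Ccl5, an attractant of T cells and monocytes made by T cells and stored in platelets, was the inflammatory CC ligand past 2-fold in swimming against nonswimming. It had 32.5 on the Chlorella array, against 91.9 on the swimming array and 30.3 on the nonswimming array, so the Chlorella and nonswimming values were near each other. Its log2 ratio was 1.60 ± 0.21 for swimming against nonswimming and -1.50 ± 0.21 for Chlorella against normal food. A dimmer probe of Ccl5 gave 1.07 and -1.60 (log2 ratios), and for Chlorella swimming against nonswimming the 2 probes had opposite signs, 0.10 and -0.53. Ccl4, an attractant of T cells and macrophages, was above background on the swimming array alone (3.94), and Ccl3 on none. Ccl5, Ccl9, Ccl6, Ccl3 and Ccl4 follow each other on chromosome 11 in RefSeq order, as do Ccl2, Ccl7, Ccl11, Ccl12, Ccl8 and Ccl1, yet within each run the order of the arrays differed between genes.

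The receptor of the Ccr2 ligands was also low on the Chlorella array. Ccr2, which brings monocytes out of bone marrow and into tissue, had 8.78 on the Chlorella array, against 32.7 on the swimming array and 24.0 on the nonswimming array. As with Ccl7 and Ccl12, the swimming and nonswimming signals lay nearer to each other than to the Chlorella signal. The log2 ratio of Ccr2 was -1.90 ± 0.24 for Chlorella against normal food and -1.45 ± 0.24 for Chlorella swimming against nonswimming. For swimming against nonswimming it was 0.45 ± 0.21. A further probe of Ccr2 was not well above background on any array.

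Monocyte and macrophage markers moved in part with these genes. All 10 markers were well above background on every array, and their summed scaled signal, dominated by Lyz2, was 4650 on the Chlorella array, against 11970 on the swimming array and 8329 on the nonswimming array. For Chlorella against normal food their median log2 ratio was -0.98. Of the 10, 4 were at least 2-fold lower, Itgam, Lyz2, Mpeg1 and Fcgr1, against 4.86% of all genes. Cd14 and Cd163 were nearly level, at -0.09 ± 0.20 and -0.02 ± 0.20. For swimming against nonswimming the median was 0.04 and none was past 2-fold, much as for Ccl2 and Ccl7. The part of macrophage content in the signals of Ccr2 and its ligands was not tested.

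Of the 8 CC ligands of lymphoid and barrier tissue, Ccl19 was past 2-fold in swimming against nonswimming. Ccl19, which guides T cells and dendritic cells into lymph nodes through Ccr7, had 46.0 on the Chlorella array, against 78.1 on the swimming array and 30.9 on the nonswimming array. Its log2 ratios were 1.34 ± 0.21 for swimming against nonswimming and -0.76 ± 0.21 for Chlorella against normal food. For Chlorella swimming against nonswimming the ratio was 0.57 ± 0.21. A further probe of Ccl19 gave 1.03, -0.40 and 0.63 (log2 ratios) in the same order of comparisons. Ccl21c, which acts on the same receptor and whose probe may also detect near-identical Ccl21 copies, had 208.8, 295.7 and 293.9 on the Chlorella, swimming and nonswimming arrays. Ccl19 was thus high on the swimming array, while Ccl21c was low on the Chlorella array (log2 ratio -0.50 ± 0.20 against normal food). Their receptor Ccr7 was above background on the swimming array alone, with 0.610, 6.79 and 0.814, at least 3.01-fold over nonswimming and with Chlorella at least 2.58-fold lower than normal food.

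Ccl17, which attracts T cells through Ccr4, had its highest signal on the nonswimming array, with 3.26 on the Chlorella array, against 4.55 on the swimming array and 8.46 on the nonswimming array. Its log2 ratio was -1.38 ± 0.35 for Chlorella swimming against nonswimming and -0.90 ± 0.27 for swimming against nonswimming, the lowest of any measured member there. Ccr4 and Ccl22, its receptor and the other ligand of that receptor, were not well above background on any array. Ccl25, Ccl27 and Ccl28, ligands of thymus, skin and mucosa, had no log2 ratio beyond 0.47 in size on the brightest probe. A dimmer probe of Ccl25 gave 0.53 for swimming against nonswimming. Ccl28 was not well above background on the Chlorella array, so it had a ratio only for swimming against nonswimming. Ccr6, on B cells and T helper subsets, had 6.58 on the Chlorella array, against 13.0 on the swimming array and 3.65 on the nonswimming array (log2 ratio 1.83 ± 0.30 for swimming against nonswimming). The nonswimming signal of Ccr6 lay close to the floor of that array, so the size of ratios against it is uncertain. Its ligand Ccl20 was not well above background on any array. For Chlorella against normal food the log2 ratio of Ccr6 was -0.98 ± 0.25, just short of 2-fold. For Chlorella swimming against nonswimming it was 0.85 ± 0.32.

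T and NK cell markers differed in part. Of 11 markers, 5, 10 and 6 were well above background on the Chlorella, swimming and nonswimming arrays, and Ncr1, an NK cell receptor, was so on none. Their summed scaled signal was 50.5 on the Chlorella array, against 178.5 on the swimming array and 55.5 on the nonswimming array. Cd3d, a T cell receptor subunit, and Nkg7, of cytotoxic granules, had log2 ratios of 3.09 ± 0.29 and 2.99 ± 0.22 for swimming against nonswimming, but Cd3e had 0.05 ± 0.23 and Cd4 had -0.11 ± 0.32. The part of T cell content in the signals of Ccl5, Ccr7, Cxcr3 and Cxcr6 was not tested.

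Cx3cl1, a ligand tethered to endothelium and neurons, was one of the few members with a positive ratio for Chlorella against normal food. It had 82.0 on the Chlorella array, against 56.3 on the swimming array and 71.5 on the nonswimming array, and its log2 ratio of 0.54 ± 0.20 was the highest of the 31 measured members. Its receptor Cx3cr1, on patrolling monocytes and tissue macrophages, had 4.14, 7.51 and 4.47, highest on the swimming array (log2 ratio -0.86 ± 0.30 for Chlorella against normal food). Its other probe did not follow that order: it was well above background on the nonswimming array alone, with 3.04, 1.99 and 4.58. Xcr1, a receptor of cross-presenting dendritic cells, was nearly level with 9.03, 9.24 and 7.34, and its ligand Xcl1 was not well above background on any array.

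Over the whole class, all 8 receptors measured in swimming against nonswimming had positive log2 ratios, with a median of 0.77, and 2 were past 2-fold. Of the 25 measured ligands 14 were positive and 6 past 2-fold, with a median of 0.04, which turned to -0.04 under quantile normalization, -0.11 under median centring and -0.01 with the stricter filter. Among all genes in that comparison 44.87% of ratios were positive and 5.14% of genes were at least 2-fold higher. In Chlorella against normal food all 7 measured receptors had negative ratios, with a median of -1.39 and 4 past 2-fold. In that comparison 1 of the 7, Xcr1, turned positive under quantile normalization or median centring, and with normexp 2 of the 7 were positive. The 24 measured ligands had a median of -0.61, 20 negative ratios and 8 past 2-fold. Among all genes 40.1% of ratios were negative and 4.86% of genes were at least 2-fold lower. The other receptors were not well above background on both arrays of a comparison, and no difference between receptors and ligands was tested.

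**Figure D4:**
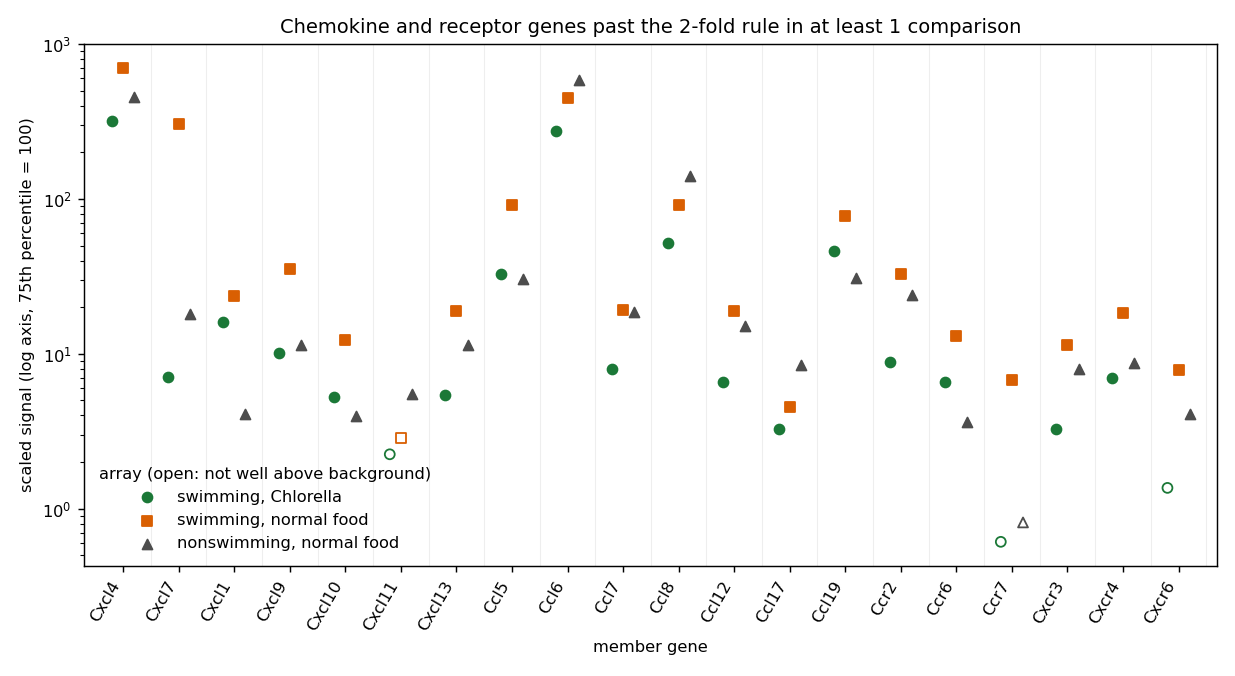
Scaled signal (y axis, log scale, 75th percentile of the array = 100) on the 3 arrays for the member genes reported here (x axis) that were past 2-fold, or past it by their bound, in at least 1 comparison, with open symbols where a gene was not well above background. Cxcl7 (7.06, 305 and 18.1 on the Chlorella, swimming and nonswimming arrays) stands out on the swimming array, whereas Ccl7 and Ccl12 are close on the swimming and nonswimming arrays and low on the Chlorella array. Heights compare arrays within a gene and not genes with each other.

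Genes that act around the chemokine receptors were described from a list of 63 chosen by function. Of 50 measured in Chlorella against normal food, 16 passed 2-fold on the lower side and 1 on the higher side. The shares over all genes were 4.86% and 1.37%, and the median log2 ratio of the 50 was -0.36. Of 54 measured in swimming against nonswimming, 12 were at least 2-fold higher and 1 (Ifng) lower, against 5.14% and 1.07% of all genes. The median of the 54 was 0.18. Cxcr1, Il1a, Il6 and Sele were not well above background on any array. Some of these genes also serve as cell type markers, namely Itgam, Mmp8, Ctsg and Elane.

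Of 27 signalling genes, 9 of 25 measured were at least 2-fold lower in Chlorella against normal food, against 4.86% of all genes. Rac2, a small GTPase of blood cells, had 27.0 on the Chlorella array, against 188.6 on the swimming array and 45.5 on the nonswimming array. Its log2 ratio was -2.80 ± 0.21 for Chlorella against normal food, and the kinase Fgr and the regulator Rgs18 had -2.45 ± 0.28 and -2.95 ± 0.27. The widely expressed Rac1, Gnai2, Gnb2 and Arrb1 had log2 ratios of 0.43, 0.08, -0.09 and -0.18 in the same comparison. Related genes of the list were lower but not past 2-fold: Gnai1 had -0.56, Gnai3 -0.27, Gnb1 -0.23 and Arrb2 -0.70. Among adhesion genes, Itgb2, the shared beta chain of leukocyte integrins, had 21.0, 100.2 and 49.4 on the Chlorella, swimming and nonswimming arrays. Vcam1, the endothelial partner of the integrin Itga4, had 64.3, 163.3 and 68.4, high on the swimming array, while Icam1 had -0.38 ± 0.20 for Chlorella against normal food on the log2 scale.

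Among inducers of chemokine genes, Nfkbia, the inhibitor of NF-kB that NF-kB itself induces, was the gene past 2-fold on the positive side in Chlorella against normal food. It had 3224 on the Chlorella array, against 1575 on the swimming array and 1418 on the nonswimming array (log2 ratio 1.03 ± 0.20 for Chlorella against normal food). Il1b, the inflammatory cytokine, went the other way with 4.84, 11.5 and 6.56. Ccrl2, an atypical receptor that binds chemerin, was near 2-fold higher on the Chlorella array, with 142.4, 73.1 and 76.5. The scavenging receptors Ackr1 and Ackr2 had log2 ratios of -0.23 ± 0.20 and -0.36 ± 0.20 for Chlorella against normal food. Nfkbia and Ccrl2 thus had their highest signal on the array where most chemokine genes had their lowest.

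Neutrophil, eosinophil, B cell, platelet and erythroid markers had median log2 ratios farther from 0 than the chemokine genes in swimming against nonswimming and in Chlorella against normal food. Adipocyte markers did so as well, with medians of 1.20 and -1.09. Macrophage markers did not in the first of these comparisons (median 0.04), nor T and NK cell markers in the second (-0.30). The neutrophil markers had a median log2 ratio of 3.71 for swimming against nonswimming and of -6.70 for Chlorella against normal food. The 8 erythroid markers had summed scaled signals of 13040, 44150 and 12760 on the Chlorella, swimming and nonswimming arrays, with 4, 8 and 6 above background. Hbb-b1 made up 8601, 27950 and 7079 of these sums and Hba-a1 4238, 14710 and 5354. In Chlorella swimming against nonswimming 1 of 4 measured erythroid markers (Slc4a1, -1.41 ± 0.21) was at least 2-fold lower, against 1.49% of all genes. The 8 adipocyte markers, all above background, had sums of 47980, 77840 and 39360. Muscle, endothelial and fibroblast markers had medians of 0.39, 0.27 and -0.04 for Chlorella against normal food, with none past 2-fold there. Of the muscle markers, Mb, which encodes myoglobin, was at least 2-fold lower in swimming against nonswimming (log2 ratio -1.04 ± 0.20), and Ttn, which encodes titin, was at least 2-fold higher in Chlorella swimming against nonswimming (1.06 ± 0.20). The 7 keratinocyte markers, of which Krt1 was on none, had sums of 227.2, 197.2 and 777.8. Of these sums, Krt10 made up 200.9, 171.2 and 409.6. The median log2 ratio of the keratinocyte markers was -4.44 for swimming against nonswimming. The dendritic cell list of 6 had 4 markers above background on each array and a median of -0.31 for Chlorella against normal food, with Clec9a on none. Their part in the chemokine values was not tested.

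**Figure D5:**
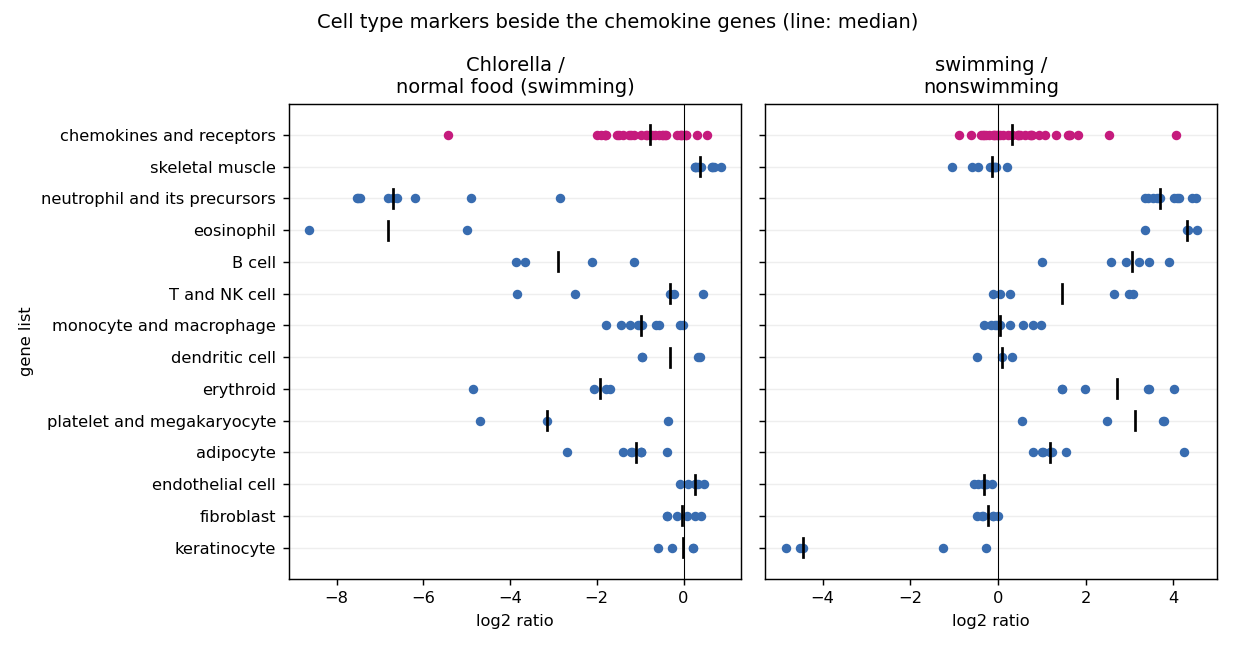
Log2 ratio (x axis) of each measured gene of the chemokine and receptor set and of each cell type marker list (y axis) for Chlorella against normal food in swimming mice and for swimming against nonswimming, with a line at the median of the list. Neutrophil (medians -6.70 and 3.71) and platelet markers (-3.14 and 3.14) lie far from 0 in both comparisons, macrophage markers (-0.98 and 0.04) in the first, and chemokine genes have medians of -0.76 and 0.33.

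Genes close to the 2-fold limit show how far the counts rest on it. In swimming against nonswimming Cxcr4 (1.07) and Ccl19 (1.34) lay just inside and Cxcr6 (0.94) and Ccl17 (-0.90) just outside, on the log2 scale. In Chlorella against normal food Cxcl4 (-1.13) and Cxcl10 (-1.22) lay inside and Ccr6 (-0.98) and Cx3cr1 (-0.86) outside. In Chlorella swimming against nonswimming Cxcl13 (-1.06) and Ccl6 (-1.10) lay inside and Ccl24 (-0.97) and Ccr6 (0.85) outside. Of 8 genes with several measured probes, none had probes of opposite sign in swimming against nonswimming, Cxcl16 had in Chlorella against normal food, and Ccl5 and Cxcl12 had in Chlorella swimming against nonswimming. Cxcl7 and Ccl5 stayed past 2-fold in swimming against nonswimming and in Chlorella against normal food under every alternative that gave them a value. Cxcl4 did so for Chlorella against normal food. For Chlorella swimming against nonswimming Cxcl7 stayed past 2-fold in 6 of 7 alternatives, with a log2 ratio of -0.34 at its smallest.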

How the data were processed

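Each of the 3 groups was measured on 1 single-colour Agilent array of Cy3-labelled RNA pooled from 10 mice, from 500 ng per the labels' protocols. The arrays shared a slide and a scan, per the file headers. The deposited scanner files hold intensity values: per the submitters' processing notes Agilent Feature Extraction 9.5 was used, which gives a processed, background-subtracted signal with its error and flags per spot. The authors' deposited table holds log2 values of 13683 of 43379 spots. Its differences between arrays correlated with those of the scanner signals on the log2 scale (r from 0.71 to 0.82 across spots). After a common offset was removed, only 55.79% to 56.62% of spots agreed within 0.01, and the cause of the other differences was not tested. The value each probe was centred on is unknown. The medians of its columns were 0.010, -0.005 and 0.008 on the Chlorella, swimming and nonswimming arrays.

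Control spots and spots with a feature outlier flag were left out and spots of a probe averaged. Each processed signal was put on the log2 scale and its array's 75th percentile subtracted. Probes were renamed through a RefSeq table of GRCm38.p6, 22948 through the accession, 6658 through the symbol, 3109 through a former symbol, and 8454 kept the file's name. A gene is its brightest probe. A gene was counted when at least 2-fold different and well above background on both arrays. If it was above background on 1 array only, its bound divides the bright value by the lowest signal that was well above background on the dim array, or by the dim probe's own if higher. The number of arrays limits the precision: with 1 per group no test was made. The members, lists and alternatives were chosen with earlier results of these data known. Members may be named, with all values for those past 2-fold or by bound and for their measured ligands and receptors. From other lists, up to 4 genes past 2-fold per list and comparison were named, and a few others, such as partners of members, were chosen after their values were seen. Some genes counted or listed are not reported by name here.

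Other settings tried were cyclic loess, quantile normalization, median centring, normexp with an offset of 50, no filter, a filter at a signal of 50, the mean over probes, the authors' values and the 95% limit of the scanner error. The counting steps were tested on simulated data. Python 3.11.15, numpy 2.4.6, pandas 2.3.3, matplotlib 3.10.9, R 4.3.3 and limma 3.58.1 were used.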

Additional observations from a re-analysis of the deposited data

How the results depend on the processing

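No paired analysis was possible because each group has 1 array. No median over the members changed direction under quantile normalization, cyclic loess, median centring or the mean over probes. In swimming against nonswimming, normexp background correction, which compresses dim signals, left 2 genes past 2-fold on the higher side and a median log2 ratio of 0.090, and the stricter filter, which tests 18 genes, left 3 and a median of -0.00059. In that comparison 1 gene was at least 2-fold lower under quantile normalization, 1 under median centring and 2 of 49 with no filter. The pathway list had a median of 0.39 in the authors' values, over 36 of its genes. In Chlorella against normal food, normexp left 3 genes lower and a median of -0.33, and the stricter filter left 2 of 14 and -0.46. With no filter 3 of 49 were higher. The authors' values gave a median of -1.01 over the 21 members they covered. In Chlorella swimming against nonswimming, normexp left 0 higher, 2 lower and a median of -0.032. The stricter filter left 0 higher and 2 lower of 14, and no filter gave 3 of 49 higher. Beyond the construction of these settings the cause was not tested. Of 31 gene ratios past 2-fold, 7 kept that size in every alternative that gave a value, 24 did not, and 0 changed sign. The 7 were Ccl5 and Cxcl7 for swimming against nonswimming, Ccl5, Cxcl4 and Cxcl7 for Chlorella against normal food, and Ccl6 and Ccl8 for Chlorella swimming against nonswimming. The median over all genes shifted by -0.15 for swimming against nonswimming and 0.13 for Chlorella against normal food with median centring, and by -0.10 and 0.12 with no filter. Signal close to background limits the ratios of dim genes, such as Cxcr3 and Cx3cr1 on the Chlorella array.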
